A study of Mus musculus with 2 samples.

Results

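Transcripts of exocrine pancreas genes were followed in mouse liver RNA. These 10 genes, of 12393 with a probe set of their own on the array, encode digestive enzymes and a secretory granule protein: Prss2, 2210010C04Rik, Ctrb1, Cela1, Cela2a, Cela3b, Cpb1, Clps, Pnliprp1 and Zg16. They were chosen by name after earlier results on the same arrays had shown low values for most of them with oleanolic acid. The log2 ratio between the arrays therefore chose the genes, and it is given as a description without a test. A probe set is a group of array probes that report the same transcript, and every probe set annotated to a single one of these symbols was taken, dim ones included, which gave 21.

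The liver RNA came from male mice with a C57BL/6J background that lack apolipoprotein E, a genotype shared by both groups, labelled as 2 months of age. Control mice ate a semipurified Western diet for 11 weeks. Over the same 11 weeks the other group ate a Western diet that held 0.01% oleanolic acid, a plant triterpenoid, which supplied 10 mg/kg/day. The RNA of each group was pooled on 1 array, so there is no replicate, no difference has a p-value, and each one describes these 2 arrays rather than the diets. The growth protocol of both samples names oleanolic acid, so the groups were read from the titles and diet labels.

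Acinar cells of the pancreas make most digestive enzymes of the gut as inactive precursors, store them in zymogen granules and release them into the pancreatic duct. Trypsin cuts and activates the other precursors. In acinar cells the transcription factor complex PTF1, which contains the proteins PTF1A and RBPJL, drives these genes through an E-box paired with a TC-rich box in their promoters. Hepatocytes do not normally make most of these enzymes.

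The promoters of the 3 elastase genes are shown because this family holds both kinds of result, Cela1 with nearly the same signal on both arrays and Cela2a and Cela3b with lower signals in the oleanolic acid array. Prss2 is added as the gene with the most probe sets above the array median. Each sequence is the 250 bases before the transcription start from RefSeq on GRCm38.p6, 5′ to 3′ on the gene's strand. Capitals mark the E-box CACCTG, the TC box TTTCCC and the TATA box TATAAA, each searched on both strands, so that CAGGTG and GGGAAA are the E-box and the TC box read on the opposite strand. Cela1 lies at chr15:100687921-100688170 on the minus strand, Cela2a at chr4:141826006-141826255 on the minus strand, Cela3b at chr4:137430521-137430770 on the minus strand and Prss2 at chr6:41521526-41521775 on the plus strand.
Cela1: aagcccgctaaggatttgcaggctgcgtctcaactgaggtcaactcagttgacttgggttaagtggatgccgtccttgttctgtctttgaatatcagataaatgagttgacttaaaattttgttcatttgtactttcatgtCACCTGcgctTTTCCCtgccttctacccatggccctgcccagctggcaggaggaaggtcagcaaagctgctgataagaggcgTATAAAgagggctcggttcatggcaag
Cela2a: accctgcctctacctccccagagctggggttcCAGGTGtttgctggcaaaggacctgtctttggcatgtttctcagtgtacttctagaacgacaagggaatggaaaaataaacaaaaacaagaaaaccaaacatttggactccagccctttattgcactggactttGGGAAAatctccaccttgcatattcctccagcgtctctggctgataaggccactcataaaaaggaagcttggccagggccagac
Cela3b: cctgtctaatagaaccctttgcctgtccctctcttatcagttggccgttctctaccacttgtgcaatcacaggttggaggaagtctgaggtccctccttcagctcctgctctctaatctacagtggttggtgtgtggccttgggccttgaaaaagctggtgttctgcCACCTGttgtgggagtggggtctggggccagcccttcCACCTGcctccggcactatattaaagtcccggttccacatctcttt
Prss2: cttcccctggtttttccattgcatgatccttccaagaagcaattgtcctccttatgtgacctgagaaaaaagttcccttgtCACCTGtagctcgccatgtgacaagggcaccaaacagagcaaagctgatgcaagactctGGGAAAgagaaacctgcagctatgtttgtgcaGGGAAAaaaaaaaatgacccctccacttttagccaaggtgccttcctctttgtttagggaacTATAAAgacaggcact

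RefSeq promoters were matched for 8 of the 10 genes by symbol, and those of Clps and Zg16 were not used here. An E-box was present in 6 of these 8 promoters and in 17.2% of 32851 promoters of the same length. The TC box was present in 4 of 8 and in 21.9% of all promoters. Both motifs occurred together in 3 of 8, those of Cela1, Cela2a and Prss2, and in 3.61% of all promoters. In the Cela1 promoter the E-box began at base -109 and the TC box at base -99, both on the gene's own strand, counted back from the transcription start. In Cela2a the E-box began at -218 and the TC box at -84, both on the opposite strand. Cela3b had E-boxes at -83 and -46 and no TC box, and Prss2 an E-box at -169 with TC boxes at -110 and -78. The TATA box was found in 3 of 8 promoters, at -27 in Cela1, -16 in Prss2 and -30 in 2210010C04Rik, and in 12.4% of all promoters. The Pnliprp1 window held none of these letter strings. These matches describe sequence and not binding.

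**Figure D1:**
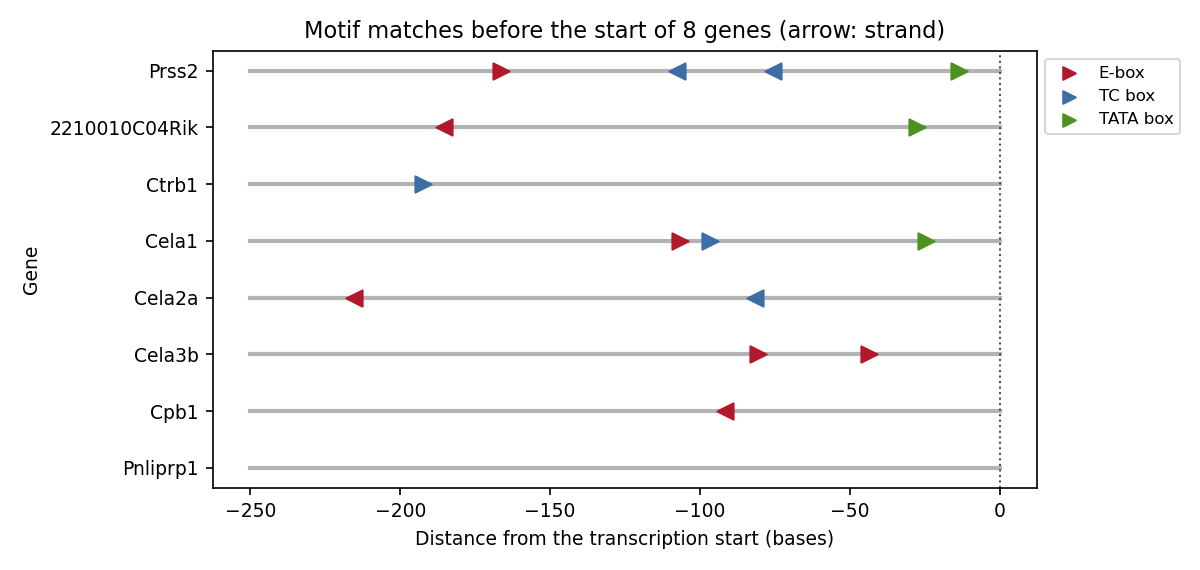
Matches to the E-box (red), TC box (blue) and TATA box (green) in the 250 bases before the transcription start of 8 genes, plotted by distance from the start in bases, with arrows pointing right for the gene's own strand and left for the opposite one. The E-box and TC box of Cela1 lie side by side at -109 and -99, and Pnliprp1 has no match.

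Signals are MAS5 intensities on a linear scale. A probe set was called measured when its signal on at least 1 array reached that array's median, 61.5 with the control diet and 59.3 with oleanolic acid. Signals under the 25th percentile of an array (10.7 and 10.1), the floor, were raised to it, and each gene was given the average log2 ratio (oleanolic acid over control) of its measured probe sets. Errors are SDs between a gene's probe sets or, for a gene with 1 probe set, the pooled SD between probe sets of genes with a like signal. They cover probe error within these arrays and not the variation between mice.

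Of the 10 genes, 8 were measured. Setting Cela1 aside, 20 of 20 probe sets had a lower signal in the oleanolic acid array, 16 of them by more than 1.5 on the log2 scale with the floor. Over all 20380 probe sets with a single symbol, 10485 had a lower signal there, and the share past 1.5 was not counted for probe sets. Of the 20 probe sets, 14 were measured. All 14 passed through the control array alone, since their oleanolic acid signals lay under that array's median. A probe set that passes in this way has to be lower, so the counts below describe the arrays and support nothing. Of the 8 measured genes, 7 had a log2 ratio below -1.5, the size named in the submitters' design text. Among all 7137 measured genes 0.280% were below -1.5 and 0.631% below -1, and in the dimmest of 4 signal bands, 1784 genes among which these 7 lie, 0.841% were below -1.5. The median log2 ratio of the 7 was -1.96, a 3.88-fold lower signal, beside 0.0012 over all measured genes. With the floor at the array medians, none of the 7 was below -1.5 and their median was -0.86. With a pseudocount of 16 added to each signal in place of the floor, 2 of them, Prss2 and 2210010C04Rik, were below -1.5 and the median was -1.41. In bulk RNA, fewer cells of a type and less RNA per cell cannot be told apart, and the source of these transcripts in the liver pools was not tested.

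**Figure D2:**
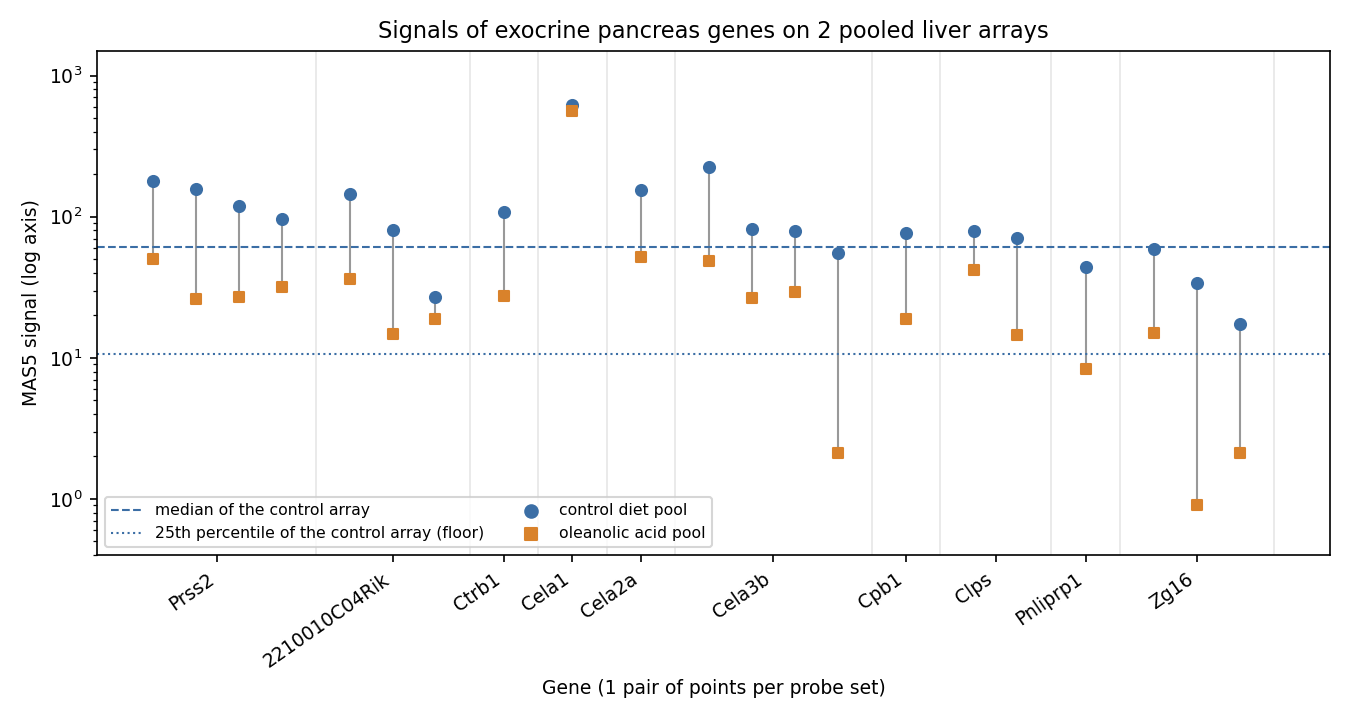
MAS5 signal (log axis) of each of the 21 probe sets on the control array (circles) and the oleanolic acid array (squares), grouped by gene, with the median and the 25th percentile of the control array as dashed and dotted lines. Cela1 is at 619 and 559, and the squares of the other genes all lie under the dashed line.

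Trypsinogens are the precursors of trypsin. Prss2, a major trypsinogen, had 4 probe sets, with control signals of 96.9, 119, 158 and 179 and oleanolic acid signals of 31.7, 26.9, 26.3 and 50.2 in the same order. Each of the 4 was lower with oleanolic acid than on the control array. The log2 ratio was -2.04 ± 0.42 (SD, n = 4 probe sets), a 4.12-fold lower signal, and single probe sets ranged from -1.61 to -2.59. It was -1.18 with the floor at the array medians. Of the 4, 3 carry the suffix _x_at, which marks probes shared with related sequences, so their signal cannot be separated from that of other trypsinogens. The probe set at -1.61 carries _a_at, which marks probes shared between transcripts.

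2210010C04Rik is the RIKEN name of another gene of the trypsinogen family. Its 3 probe sets had control signals of 145, 80.1 and 26.8, against 36.0, 14.7 and 18.8 in the oleanolic acid array. The brighter 2 probe sets were lower by a log2 ratio of -2.01 and -2.45, while the dimmest, which was not measured, was at -0.51. The gene's log2 ratio was -2.23 ± 0.31 (SD, n = 2 probe sets), the lowest of the 8 measured genes, and it was -1.66 with the dim probe set counted and -0.86 with the floor at the array medians. In RefSeq, Prss2 lies directly before Trbd1 and 2210010C04Rik directly before Trbv2, so both trypsinogen genes border segments of the T cell receptor beta locus.

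Ctrb1 encodes a chymotrypsinogen, which trypsin activates. Its 1 probe set read 107 with the control diet and 27.6 with oleanolic acid, and the log2 ratio was -1.96 (probe set SD 0.27). Cpb1 encodes a carboxypeptidase that removes basic residues from the ends of peptides. Its signal went from 76.5 with the control diet to 18.7, 4.09-fold lower, which is -2.03 on the log2 scale (probe set SD 0.27). With the floor at the array medians Cpb1 was at -0.37 and Ctrb1 at -0.85. Both genes were above the median of the control array and below that of the other.

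The elastases are serine proteases, and they separated into 2 kinds. Cela1 read 619 with the control diet and 559 with oleanolic acid, brighter than 85.3% and 84.4% of all probe sets on the same array. Its log2 ratio was -0.15 (probe set SD 0.17), a difference smaller than its error. Of the 10 genes, Cela1 alone had a signal above the median on both arrays. Brightness depends on the probes as well as on the transcript, so its signal is not set against those of the other genes.

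Cela2a, another elastase, read 156 with the control diet and 51.6 with oleanolic acid. Its log2 ratio of -1.59 (probe set SD 0.27) was the smallest difference among the 7 lower genes and just past the threshold. Cela3b had 4 probe sets, with control signals of 226, 81.6, 78.6 and 55.3 and oleanolic acid signals of 48.3, 26.4, 29.4 and 2.1. Each of these 4 was also lower with oleanolic acid. The last probe set was under the median on both arrays, and its oleanolic acid signal was under the floor, so it was at least 5.48-fold lower. Over the other 3 probe sets the mean was -1.76 ± 0.42 (SD, n = 3 probe sets), and -0.93 with the floor at the array medians.

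Subtracting the log2 ratio of Cela1 left -1.45 for Cela2a and -1.61 for Cela3b, with combined probe set SDs of 0.32 and 0.45. The same difference from Cela1 was -1.90 for Prss2, -2.08 for 2210010C04Rik, -1.89 for Cpb1 and -1.81 for Ctrb1, with combined SDs between 0.32 and 0.46. For Clps it was -1.46, with a combined SD of 0.99. These differences have no test, because the genes were selected on this contrast. Among themselves the 7 genes spread over 0.63 on the log2 scale, with an SD of 0.24, close to the 0.27 between probe sets of 1 gene at this signal, so neighbours in their order do not differ beyond their error.

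**Figure D3:**
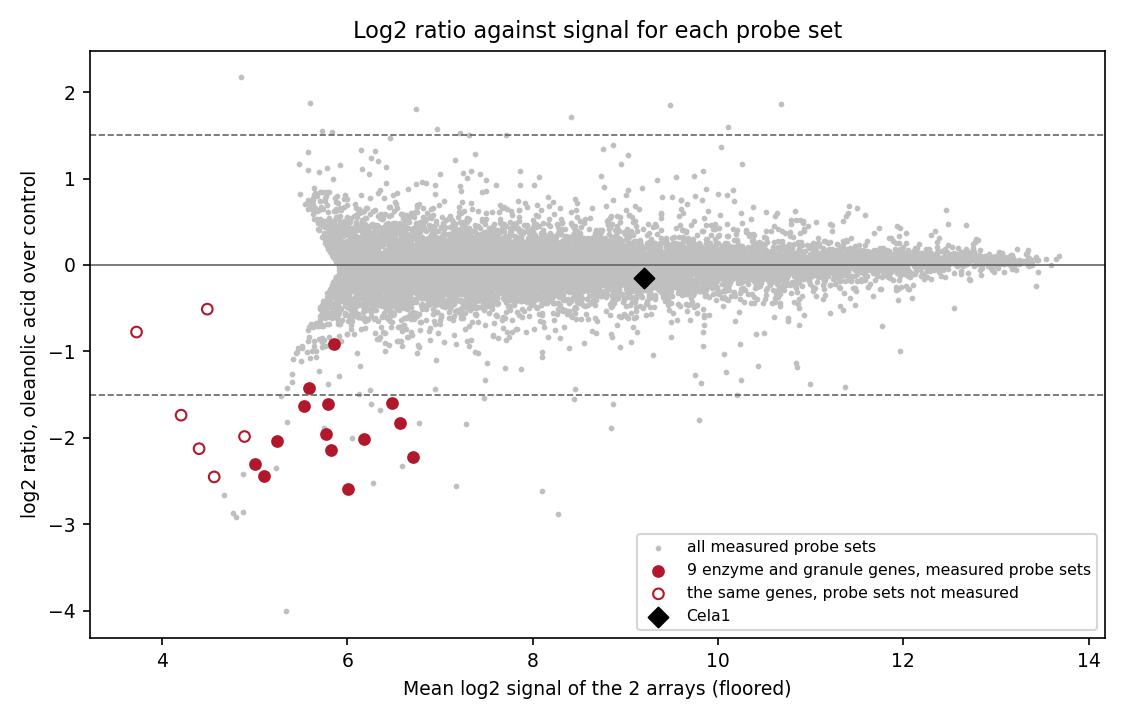
Log2 ratio of oleanolic acid over control against mean log2 signal for every measured probe set (grey), the measured (filled red) and not measured (open red) probe sets of the 9 genes other than Cela1, and Cela1 (diamond), with dashed lines at 1.5 and -1.5. Red points lie at the dim end of the plot, while Cela1 is at -0.15 within the grey cloud.

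Both other enzyme-related genes serve lipid digestion. Clps encodes colipase, the cofactor that anchors pancreatic lipase to lipid droplets in the gut. Its 2 probe sets disagreed: one went from 79.8 to 42.2, or -0.92 on the log2 scale, and the other from 70.9 to 14.4, or -2.30. The mean was -1.61 ± 0.98 (SD, n = 2 probe sets), so the place of Clps past the threshold depends on which probe set is read, and with the floor at the array medians it was at -0.34. Pnliprp1 encodes a protein related to pancreatic lipase. It read 44.1 with the control diet and 8.3 with oleanolic acid and was not measured. Since 8.3 is under the floor, it was at least 4.37-fold lower.

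Zg16 encodes a lectin of the zymogen granule membrane that also occurs in intestinal goblet cells. Its 3 probe sets had control signals of 59.0, 33.7 and 17.3 and oleanolic acid signals of 14.9, 0.9 and 2.1. None was measured, and the last 2 oleanolic acid signals were under the floor. The brightest was 3.96-fold lower, and the others at least 3.34-fold and 1.71-fold lower. With every probe set counted as measured, Pnliprp1 had a log2 ratio of -2.13 and Zg16 of -1.50, both bounded by the floor. In that setting 9 of the 10 genes were below -1.5, beside 0.274% of all 12393 genes. Zg16 was barely past the threshold, at -1.50007, with its probe set of 17.3 and 2.1 at -0.78. For these dim probe sets no detection call was used, so a signal near the floor may be background.

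The other genes of the acinar cell were read from lists of 42 genes that are not among the 10, of which 29 had a probe set of their own and 6 were measured. Of those 6, 1 was below -1.5, 3 were below -1 and none was above 1, with a median log2 ratio of -0.70. With the floor at the array medians 0 of the 6 were below -1.5. Among all 7137 measured genes 0.280% were below -1.5 and 0.631% below -1. The 3 lower genes, Dmbt1, Cel and Cpa1, passed through the control array alone and had to be lower, so this count supports nothing either. Just outside the threshold lay 2 enzymes. Cpa1, a carboxypeptidase, went from 89.2 to 34.3, or -1.38 on the log2 scale (probe set SD 0.27). Cel, the bile salt-dependent lipase, went from 66.6 to 24.9, or -1.42 (probe set SD 0.27). Dmbt1, a scavenger receptor of mucosal surfaces and granules, went from 162 to 6.9, which is under the floor, at least 16.1-fold lower.

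As with Cela1, the amylase gene Amy1 had a bright signal that hardly differed, 2512 and 2489, or -0.01 on the log2 scale (probe set SD 0.13). Amy1 is the amylase gene known from salivary gland and liver. A probe set annotated to several other amylase genes, chosen after its value was seen and naming no single one, went from 679.6 to 111, 6.11-fold lower. Nr5a2, a nuclear receptor of acinar cells that hepatocytes also express, was at 0.10 ± 0.13 (SD, n = 3 probe sets). Gata4, a factor of the early pancreas and of other liver cells, was at 0.54 on signals of 46.1 and 67.2. It was measured through the oleanolic acid array alone, which favours a higher value there.

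The remaining 23 genes of these lists were not measured, with no control signal above 58.5. Of them 3 had a log2 ratio below -1.5, 5 were below -1 and none was above 1 when all probe sets were counted. Over all 12393 genes counted in this way 0.274% were below -1.5. Ctrl, a chymotrypsin-like gene, had signals of 54.8 and 16.8. Sycn, which encodes the granule protein syncollin, had signals of 58.5 and 20.0 on its brighter probe set and 44.7 and 16.7 on the other. For Rnase1, the pancreatic ribonuclease, they were 41.2 and 8.1, and for Reg1 30.5 and 8.9, the second value of each under the floor. Others did not go that way: Reg2 had signals of 11.1 and 13.8 and Spink1, a trypsin inhibitor gene, 11.6 and 12.9. For 6 of the 23 genes every probe set was under the floor on both arrays. The genes given here were named after their values were seen.

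Of the acinar transcription factors other than Nr5a2 and Gata4, none was measured. Ptf1a had signals of 0.6 and 10.9, and neither probe set of Rbpjl exceeded 11.4 on either array. Bhlha15, which encodes the secretory cell factor MIST1, had signals of 3.3 and 0.9 with the control diet and 1.3 and 24.3 with oleanolic acid. Of the listed acinar genes that border the 10 in RefSeq, 2 had probe sets of their own. Ctrc, next to Cela2a, had signals of 11.8 and 10.6 and Pnliprp2, next to Pnliprp1, went from 14.2 to 2.8 on one probe set and from 11.1 to 6.6 on the other.

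Markers of other cell types were set beside these values, with all probe sets of each list summed. The hepatocyte list, which checks the tissue label, was measured in 11 of 11 genes, with summed signals of 155822 and 160099 and a median log2 ratio of 0.04. Its lowest gene was Tat, an amino acid catabolic enzyme, at -0.70, and its highest the fibrinogen gene Fgb at 0.17. For the acinar serine proteases, Cela1 included, the sums were 2301 and 1025. A different set, the 9 followed genes other than Cela1, had sums of 1890 and 491.5, a 3.85-fold difference. It includes Cpb1, Clps, Pnliprp1 and Zg16, which are not serine proteases.

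The fat list was also lower in the oleanolic acid array, with sums of 940 and 423, 3 of 7 genes measured and 2 of them below -1.5. These 2, Ucp1 and Cox8b, passed through the control array alone and so had to be lower. Among all 7137 measured genes 0.280% were below -1.5. Ucp1, the uncoupling protein of brown fat, was at 76.4 and 1.0, at least 7.56-fold lower. Fabp4, a fatty acid carrier of fat and capillaries, was at -0.87 ± 0.05 (SD, n = 2 of its 4 probe sets). Over all 4 probe sets Fabp4 was at -0.53. In the B and plasma cell list, with sums of 1594 and 482, both measured genes of 5 were below -1.5, Ighm at -1.97 ± 1.31 (SD, n = 3 of its 11 probe sets) and Jchain at -1.61 (probe set SD 0.27). Over all 11 probe sets Ighm was at -0.44. Jchain passed through the control array alone and so had to be lower. The B cell genes that were not measured did not fall past the threshold: Cd79a was at -0.08, Cd79b at 0.02 and Ms4a1 at -0.63 with all probe sets counted. Among 10 islet genes, Slc2a2, a glucose transporter that hepatocytes express strongly, was the single measured one at -0.14, and the list's sums were 5253 and 4738. Insulin and glucagon genes were not measured, with 34.1 and 8.9 for Ins2 and 17.9 and 4.1 for Gcg. The second value of each is under the floor. Sst, not measured either, was nearly level at 29.7 and 27.5. Ppy, Iapp, Pyy, Chga, Pcsk1 and Neurod1 were under the floor on both arrays.

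The duct and biliary list had 1 measured gene of 5, Epcam at -0.94 (probe set SD 0.27), and sums of 138 and 141, with the duct keratins Krt19 (24.7 and 21.6) and Krt7 (16.7 and 16.1) dim on both arrays. Epcam, too, passed through the control array alone and had to be lower. Sox9 of this list, which was not measured, went the other way, at 1.05 with all probe sets counted. The intestine and stomach list had 3 measured of 11, from Tff1 at -0.33 to Apoa4 at 0.0032, with sums of 4724 and 4694, and Fabp2 and Apoa4 in it are made by liver too. In the red cell list 1 of 3 was measured, Alas2 at -0.07, with sums of 412 and 396. The part of fat, B cell or other tissue RNA in the values of the pancreas genes was not tested. The labels say that the livers were washed to clear blood, and do not give the number of mice per pool.

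**Figure D4:**
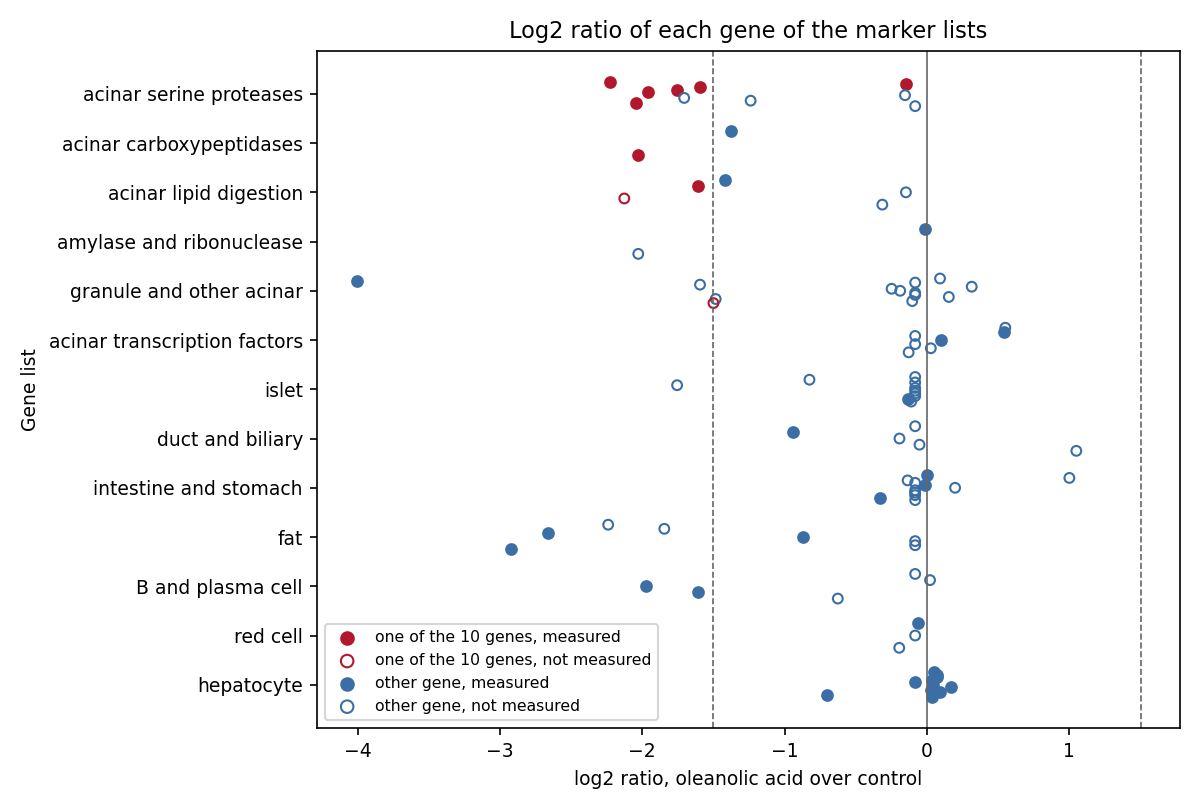
Log2 ratio of oleanolic acid over control for each gene of the marker lists, with filled points for measured genes and open points for genes not measured, and the 10 genes in red. Measured points left of the dashed line at -1.5 belong to acinar, fat and B cell lists, the islet gene Ins2 lies there as an open point, and the 11 hepatocyte genes lie between -0.70 and 0.17.

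The choice of probe sets also moved the count. Without probe sets that carry the suffixes _x_at, _s_at or _a_at, 5 of the 7 were measured and 3 of them, 2210010C04Rik, Cpb1 and Ctrb1, were below -1.5. Prss2 and Cela2a had no probe set left, Cela3b was at -1.42 and Clps at -0.92. The log2 ratio of each of the 7 stayed below 0 in every setting in which it was measured. This supports nothing, since the genes were chosen on this contrast and their measured probe sets passed through the control array alone. Cela1 was measured in all settings.

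**Figure D5:**
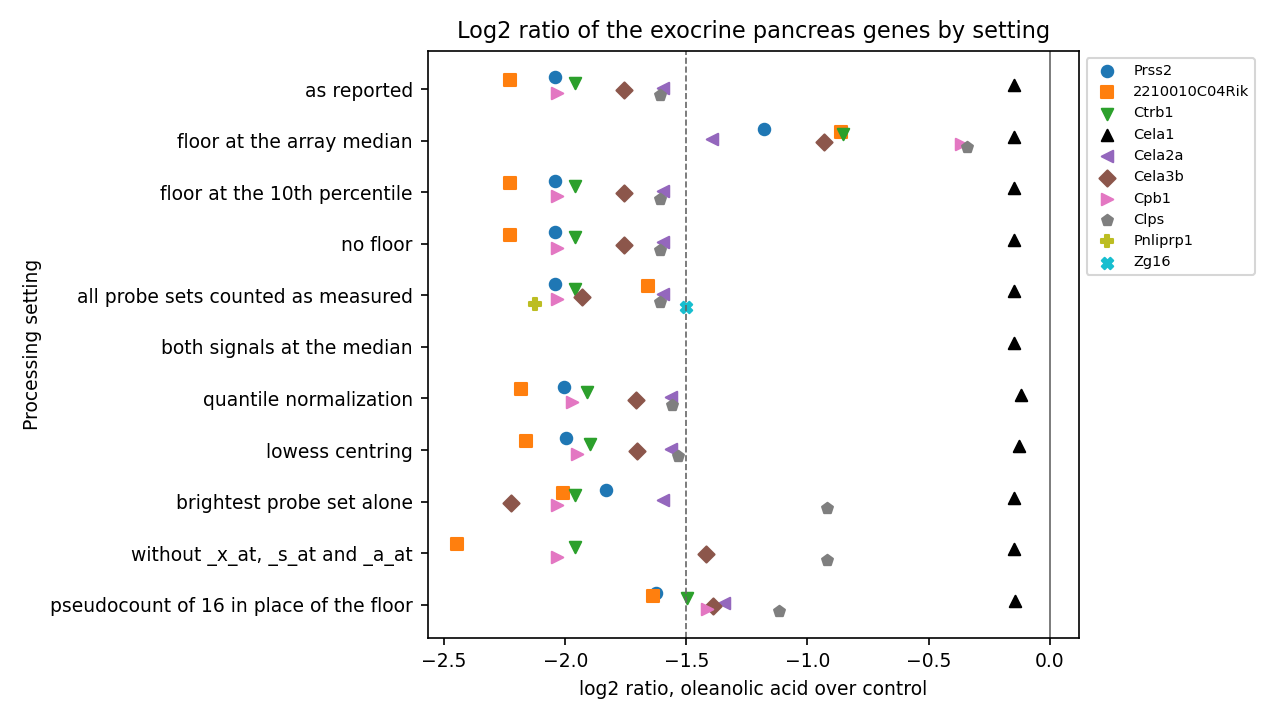
Log2 ratio of oleanolic acid over control for each gene (symbols) as reported and in 10 other processing settings, with a dashed line at -1.5. The 7 lower genes move to the right with the floor at the array median and with the pseudocount, no gene but Cela1 is measured when both signals must reach the median, and Cela1 stays near -0.15.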

How the data were processed

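Liver RNA of 2 pooled samples, 1 per diet, was hybridized to an Affymetrix array. The authors deposited 1 linear intensity per probe set. The submitters' processing notes name MAS5 without a version. Their scaling was left as deposited. Of 22690 probe sets, 64 Affymetrix controls were left out. Gene names came from the platform annotation: 20380 probe sets carried 1 symbol, 691 several and 1555 none, and the last 2 kinds entered no gene value. All 10 members matched a RefSeq gene by identifier. Floor, filter and gene values are as given above (Python 3.11.15, pandas 2.3.3). Between probe sets of 2427 genes with at least 2 measured, the pooled SD was 0.20. The number of arrays limits the precision, and the table holds no detection calls. The members and gene lists were chosen with earlier results of these data known. Named were all members, the measured genes of the acinar lists and each other list's lowest and highest gene; others are named after their values were seen. The procedure was checked on simulated data, with effects placed only in genes with a bright probe set on the control array. The check therefore does not cover the dim signals of the 7 lower genes. Alternatives covered floor, filter, scaling, probe set choice and pseudocount.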

Additional observations from a re-analysis of the deposited data

How the results depend on the processing

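Counts and ratios of the dim genes depended on how low signals were treated and on which probe sets were kept. When both signals had to reach the array median, 1 of the 10 genes, Cela1, was measured and 0 were below -1.5, by construction. As reported, 7 of the 8 measured genes were below -1.5. With the floor at the array median 0 were, without probe sets ending in _x_at, _s_at or _a_at 3 of the 6 then measured, and 2 with the pseudocount of 16. The median of the genes other than Cela1 was -0.86 and -1.41 in the first and last of these settings. Of the other acinar genes, 1 was below -1.5 as reported, 0 with the floor at the median, with both signals at the median and without those suffixes, and 4 with all probe sets counted. Of all genes, 0.280% were below -1.5 as reported and 0.274% with all probe sets counted. The log2 ratio of Cela1 lay between -0.15 and -0.12 in the settings run. Leaving out an array was not possible. No paired analysis was possible because each diet has 1 array.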

Other observations

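Probe sets annotated to several symbols name no single gene and entered no gene value above. After their values were seen, 4 such probe sets were found whose symbols include a gene of the acinar lists. In 3 of them the signal was lower in the oleanolic acid array, from 679.6 to 111 (6.11-fold, the amylase probe set above), from 216 to 42.9 (5.03-fold) and from 67.9 to 12.7 (5.35-fold). The signal of 111 lies above that array's median, unlike those of the single-symbol probe sets of the 7 lower genes. The fourth was under the floor on both arrays.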
